A study of Mus musculus with 28 samples.

Results

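The genes described here encode the UDP-glucuronosyltransferases and the cytosolic sulfotransferases, the enzymes that attach glucuronic acid or sulfate to drugs, hormones, bilirubin and bile acids so that these can leave the body. They were taken by name, as every protein-coding gene whose symbol starts with Ugt1, Ugt2, Ugt3 or Sult. There were 42 such genes, 21 of each kind, among 54163 genes in the liver table, of which 22058 are protein-coding, and the same 42 were in the muscle and 24 h tables. Another 6 genes with matching names are not protein-coding and were left out. The animals were male Lepob/Lepob C57BL/6J mice, which lack functional leptin and become obese, and vehicle and treated mice alike ate the AMLN diet, rich in fat, fructose and cholesterol, for 20 weeks from 4 weeks of age to produce fatty liver disease. Treated mice received aspirin at 3.0 mg/kg/day together with trimetazidine at 5.0 mg/kg/day by intraperitoneal injection, and vehicle mice the same volume of solvent. RNA was sequenced from 6 vehicle and 6 treated livers and from 6 and 6 muscles at 40 d, and from 1 vehicle and 1 treated sample of each tissue at 24 h. Mice are named by their label numbers. Vehicle labels start with 2, 3 or 6 and treated labels with 4 or 5 (4_5 and 5_1 through 5_5), so the leading digit cannot be told apart from treatment. Since the mice carry the ob mutation on a steatohepatitis diet, no group stands for a lean liver, and mice given either drug alone were not analysed here.

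Glucuronosyltransferases sit in the endoplasmic reticulum and use UDP-glucuronic acid, while cytosolic sulfotransferases use the sulfate donor PAPS. In the liver, UGT1A1 conjugates bilirubin, and several UGT2B enzymes act on steroids. Phenol sulfotransferases of the SULT1 family act on phenols, thyroid hormone and estrogens, and those of the SULT2 family on hydroxysteroids and bile acids. Aspirin is hydrolysed to salicylate, which is cleared in part as glucuronides. The labels name no question about these enzymes, and the comparison made was treated against vehicle in each tissue.

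The Ugt1a genes lie in one block on chromosome 1 (GRCm38, from Ugt1a10 at 88055388 to the common end near 88219004, plus strand). Each transcript begins its coding part in a first coding exon that carries 53.6% to 54.2% of its coding bases. By position, that exon belongs to a single gene, except that the transcript used for Ugt1a7c begins its coding part in the exon of Ugt1a6a. The Ugt1a7c gene itself starts further upstream, at 88095062, and has 1915 bases that overlap no other gene on its strand. All 9 are spliced to the same 4 exons, the first of which is chr1:88215044-88215175. Their exons overlap by 50.3% to 60.6% of their length on the same strand, and exons of Gm20528 on the other strand cover 9.14% to 41.5%. The join is shown for the 4 genes with appreciable reads in liver, because it shows which part of a transcript can be told apart. The lower-case bases are the last 30 of the gene's own exon and the capitals are the first 30 of the common exon, from the GENCODE M21 transcripts.

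Ugt1a9: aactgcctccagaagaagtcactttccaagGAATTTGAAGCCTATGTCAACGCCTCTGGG
Ugt1a6b: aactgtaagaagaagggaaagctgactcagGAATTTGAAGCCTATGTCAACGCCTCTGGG
Ugt1a5: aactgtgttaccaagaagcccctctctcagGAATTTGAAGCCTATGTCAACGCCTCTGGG
Ugt1a1: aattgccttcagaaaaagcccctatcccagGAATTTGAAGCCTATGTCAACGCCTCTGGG

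The capitals are identical in all of them, so a read within the common exons cannot be given to a single gene. The transcripts used for Ugt1a6a and Ugt1a7c have the same 60 bases as that of Ugt1a6b, and Ugt1a2 the same 60 as Ugt1a5. Of the 50-base windows of the Ugt1a6b transcript, 80.7% occur in other genes, and of those of Ugt1a6a 100%. For Ugt1a1, Ugt1a9 and Ugt1a5 the share is 58.2%, 62.0% and 64.0%. The sources used here do not say how reads in shared sequence were assigned. Ugt1a8 had 0 reads in all 12 livers while Ugt1a1 had 14539, so reads of the common exons were not added to every gene. For these reasons the Ugt1a genes were first taken as a sum, and each gene's own value is uncertain to the extent that shared reads were divided. The same holds for Ugt2b5, Ugt2b38 and Ugt2b37 on chromosome 5, whose transcripts share 41.7%, 37.4% and 18.3% of their 50-base windows with other genes, mainly with each other.

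Hepatocytes were the main source of RNA in these livers, with 19203 to 24661 FPKM of albumin mRNA (Alb) in the vehicle group and 11998 to 26203 in the treated group, and the 6 skeletal muscle markers summed to at most 4.00 FPKM. FPKM is the deposited unit, in which fragments are scaled to gene length and library size. Livers held 16.8 to 18.9 M reads on genes, of which the 42 genes took 0.227% to 0.345%. Treated livers differed from vehicle livers in inflammation. The 19 acute phase genes summed to 11137 to 13064 FPKM in vehicle livers, to 19138 to 50359 in 5 treated livers and to 10643 in treated 5_2, with 18 of 19 higher on average and none past the adjusted threshold. The 7 neutrophil markers summed to 81.6 to 130.045 FPKM without and 95.7 to 1530 with treatment. Lcn2, which is also 1 of the acute phase genes, made up 42.1% to 92.1% of that sum. The other 6 neutrophil markers summed to 10.8 to 18.1 FPKM in vehicle livers and to 29.0 to 444 in treated livers, so that every treated liver, 5_2 included, lay above every vehicle liver. Of them S100a9, a calcium-binding protein of neutrophils, rose from 7.87 ± 2.37 to 77.0 ± 85.6 FPKM (SD, n = 6, log2 fold change 2.62, limma adjusted p = 0.0449), a call kept in 6 of 19 alternatives (limma adjusted p from 0.0326 to 0.147). Among the livers left out in turn, the call was kept without treated 4_5, 5_2 or 5_4 and lost without any other. The 7 Kupffer cell markers summed to 438 to 498 FPKM in vehicle and 454 to 1572 in treated livers. In bulk tissue, fewer cells of a type and less RNA per cell cannot be told apart.

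In liver at 40 d, 21 of the 42 genes had a mean of at least 1 FPKM in either group and 19 passed the filter of at least 1 FPKM in at least 6 of 12 livers, each of them in every liver. None of the 19 passed limma's moderated test at an adjusted p under 0.05, where 0.255% of the 10995 genes tested did. At an unadjusted limma p under 0.05, 2 were lower (Ugt1a9 and Ugt1a6b) and 1 was higher (Ugt2b35) in treated livers, where 7.35% of all genes tested were lower and 5.88% higher. With limma voom on the recovered reads, none passed either, where 29 of the 10995 genes tested did. In direction, 14 of the 19 were lower and 5 higher, where 51.0% of all genes tested were lower. The median log2 fold change of the members was −0.13, against −0.003 over all genes tested. In no member were the groups separate, where 1.16% of all genes tested had groups that did not overlap. Each log2 fold change gives treated minus vehicle means of log2(FPKM + 1), a scale that shrinks differences of genes with low values.

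**Figure D1:**
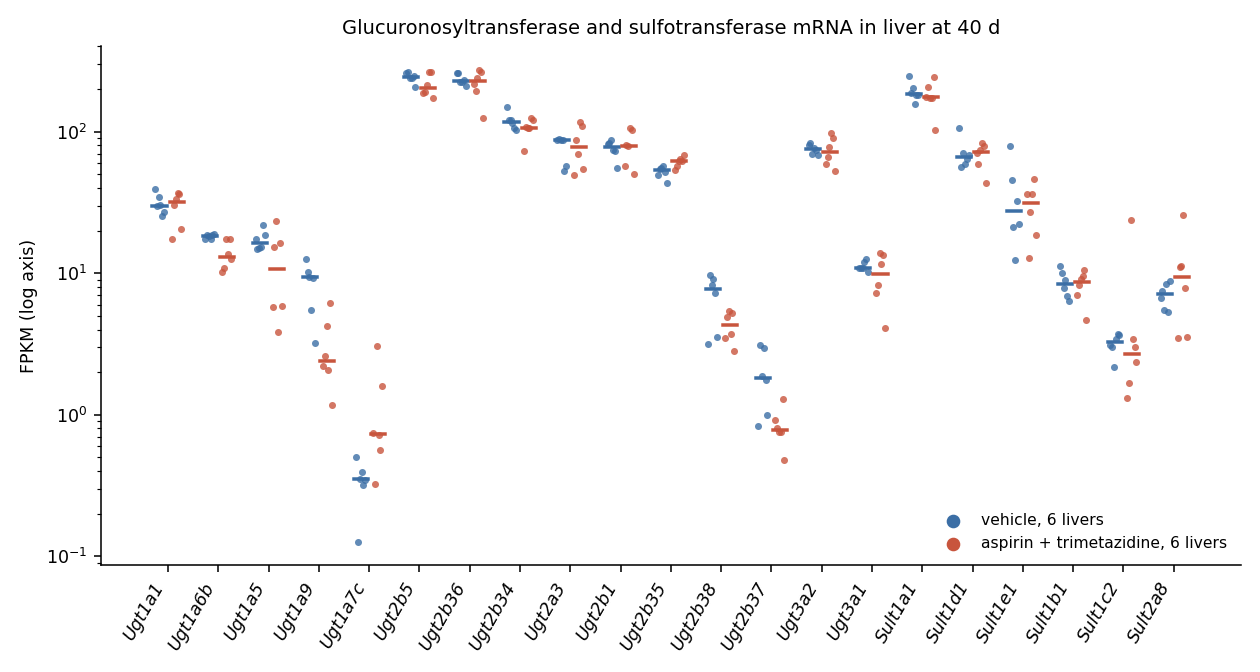
FPKM on a log axis of the 21 members with a mean of at least 1 FPKM in either group; each point is 1 liver at 40 d and each line a group median. The levels span from under 1 FPKM for Ugt1a7c to over 200 FPKM for Ugt2b5, Ugt2b36 and some values of Sult1a1, and the groups overlap in every tested gene.

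The order of levels in vehicle livers was led by Ugt2b5 (242 ± 19.9 FPKM, SD, n = 6) and Ugt2b36 (235 ± 20.0), which did not differ beyond their spread, and by the phenol sulfotransferase Sult1a1 (193 ± 31.2). Ugt2b34 followed with 119 ± 16.4 FPKM. Then came a group of Ugt2a3, Ugt2b1, Ugt3a2 and Sult1d1, with means of 70.7 to 76.6 FPKM and SDs of 5.73 to 18.2, so that their order is not resolved. Ugt2b35 (52.1 ± 5.02), Sult1e1 (35.5 ± 24.1) and Ugt1a1 (31.0 ± 5.09) stood below them. Summed over all genes of a kind, glucuronosyltransferases reached 972 ± 86.5 FPKM without and 911 ± 177 with treatment, and sulfotransferases 319 ± 70.8 and 303 ± 71.4 (SD, n = 6). Members of the Ugt2b group made up most of the former, with 733 ± 64.3 and 686 ± 118 FPKM. Treated livers spread more than vehicle livers in 15 of the 19 tested members, against 65.7% of all genes tested. The median SD of log2(FPKM + 1) was 0.22 in vehicle and 0.42 in treated livers for the members, and 0.15 and 0.18 over all genes tested.

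The Ugt1a locus, taken as the sum of its 9 genes, stood lower in the treated group by a margin that missed the threshold. The summed level was 68.8 to 87.5 FPKM in vehicle livers with a median of 75.2, and 37.0 to 82.8 in treated livers with a median of 59.0. Treated 4_5 (37.0) and 5_5 (42.6) were lowest, 4 of 6 treated livers lay below every vehicle liver, and treated 5_2 (82.8) and 5_4 (77.0) lay within the vehicle range. The group means were 75.8 ± 6.89 and 59.6 ± 18.1 FPKM (SD, n = 6). The difference was −0.39 on the log2 scale, with a two-sided exact permutation p of 0.0628 over all 924 relabellings. Without treated 5_2 the difference was −0.50 (exact permutation p = 0.0130) and without treated 5_4 it was −0.48 (exact permutation p = 0.0281), so the side of 0.05 on which the test falls changes with either liver. Treated 5_2 is also the treated liver whose acute phase sum was below every vehicle liver, and 4_5 and 5_5 had acute phase sums of 30129 and 50359 FPKM. The part of inflammation in the Ugt1a values was not tested.

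**Figure D2:**
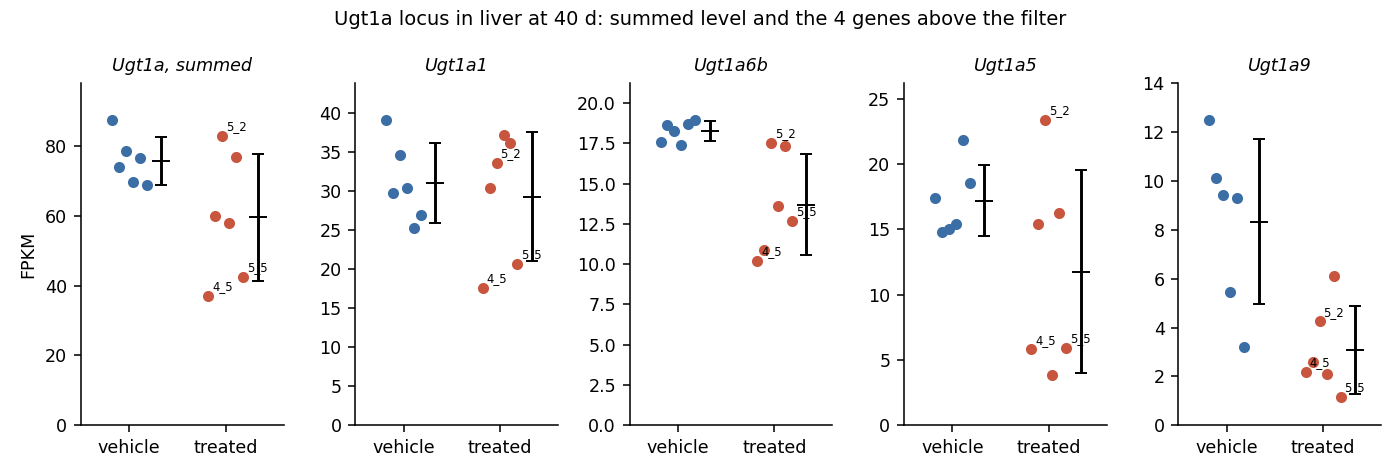
FPKM in each liver at 40 d (points) for the summed Ugt1a genes and for the 4 genes above the filter, with the group mean ± SD (black, n = 6 each) and treated mice 4_5, 5_2 and 5_5 marked. In the sum, 4 treated livers sit below all vehicle livers, while in Ugt1a1 2 do and the other 4 overlap the vehicle livers.

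Within the locus the 4 tested genes were not alike. Ugt1a1, the bilirubin enzyme, had 25.3 to 39.1 FPKM in vehicle livers (median 30.1) and 17.6 to 37.1 in treated livers (median 32.0), a log2 fold change of −0.12 (95% interval −0.51 to 0.27). Its groups overlapped, and only treated 4_5 and 5_5 lay below the vehicle range. Ugt1a6b belongs to the Ugt1a6 type, known for conjugating simple phenols. It was tight in vehicle livers, at 17.4 to 18.96 FPKM (median 18.4), and lay at 10.2 to 17.5 in treated livers (median 13.1). On the log2 scale the difference was −0.42 (SE 0.12, limma adjusted p = 0.175). Below every vehicle liver lay 5 of 6 treated livers, of which 5_4 (17.35) was barely under the lowest vehicle liver (17.38). Treated 5_2, at 17.5, lay just inside the vehicle range. Without treated 5_2 its log2 fold change was −0.49 (limma adjusted p = 0.0677). Since 80.7% of its windows occur in other genes, reads of Ugt1a6a and Ugt1a7c cannot be fully told apart from those of Ugt1a6b.

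Ugt1a9, whose human counterpart conjugates phenols and many drugs, had the largest difference among the tested members. Its values were 12.5, 10.1, 9.43, 5.47, 9.30 and 3.20 FPKM in vehicle mice 2_1, 2_3, 2_4, 2_5, 3_2 and 6_1. In treated mice 4_5 and 5_1 to 5_5 they were 2.20, 2.59, 4.25, 2.08, 6.13 and 1.17 FPKM. Vehicle 6_1 lay among the treated livers and treated 5_4 among the vehicle livers, so the groups overlapped, and 4 treated livers were below the lowest vehicle liver. The means were 8.34 ± 3.39 and 3.07 ± 1.81 FPKM (SD, n = 6), from 48 to 507 reads a liver. The log2 fold change was −1.21 (SE 0.31, 95% interval −1.88 to −0.54, limma adjusted p = 0.141). Across the 19 alternatives run, its log2 fold change lay between −1.49 and −0.71, the latter with a pseudocount of 5, and its limma adjusted p between 0.0698 and 0.315.

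Ugt1a5 split the treated livers. Vehicle values were 14.8 to 21.9 FPKM (median 16.4), while treated livers 4_5, 5_3 and 5_5 had 5.81, 3.84 and 5.90 and treated 5_1, 5_2 and 5_4 had 15.4, 23.4 and 16.3 FPKM. The log2 fold change was −0.74 (SE 0.34, limma adjusted p = 0.378). The 3 treated livers with low Ugt1a5 had the 3 highest acute phase sums of the 12 livers, 30129, 44678 and 50359 FPKM, and this relation was seen in the data and was not tested. In treated 5_3, Ugt1a1 was at 37.1 FPKM, the highest of the treated livers, while Ugt1a5 was the lowest, so reads of the locus were divided differently there. As a share of all Ugt1a reads, Ugt1a1 took 32.2% to 43.8% in vehicle and 38.5% to 61.9% in treated livers, and Ugt1a9 took 4.45% to 13.8% and 2.55% to 7.65%. Ugt1a7c did not pass the filter. Its mean was 0.340 FPKM in the vehicle group and 1.17 in the treated group, of which treated 5_2 had 3.07, and 0.788 without that liver. Vehicle livers had 0.127 to 0.499 FPKM, and 5 of 6 treated livers lay above that range, opposite in direction to the Ugt1a sum. In the transcript used here its first coding exon is that of Ugt1a6a, so reads in that exon are uncertain. Ugt1a7c also has 1915 bases that overlap no other gene on its strand, and per-gene values do not show where its reads fell. Ugt1a6a, Ugt1a10 and Ugt1a2 stayed under 1 FPKM in every liver. For Ugt1a6a, 100% of the windows of the transcript used occur in other genes, so its low values are uncertain.

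The stretch before each first exon is shown for Ugt1a9, Ugt1a5 and Ugt1a1, because these genes have promoters of their own and differed in the data above. The sequences are from RefSeq (GRCm38.p6, plus strand), from 250 bases before the start to 50 after. Capitals mark matches, on either strand, to GTTAAT, which is a half-site of the hepatocyte factor HNF1, to GCGTG, the core that the dioxin receptor AHR binds, or to the TATA box TATAAA. Of the 9 Ugt1a genes, 8 matched an entry in the promoter table, the exception being Ugt1a6b.

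Ugt1a9, chr1:88070529-88070828: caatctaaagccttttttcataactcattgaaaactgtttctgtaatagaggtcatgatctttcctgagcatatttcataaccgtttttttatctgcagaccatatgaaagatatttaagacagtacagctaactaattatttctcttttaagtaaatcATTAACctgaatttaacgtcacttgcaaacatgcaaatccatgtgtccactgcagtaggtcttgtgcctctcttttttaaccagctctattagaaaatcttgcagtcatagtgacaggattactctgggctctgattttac
Ugt1a5, chr1:88165762-88166061: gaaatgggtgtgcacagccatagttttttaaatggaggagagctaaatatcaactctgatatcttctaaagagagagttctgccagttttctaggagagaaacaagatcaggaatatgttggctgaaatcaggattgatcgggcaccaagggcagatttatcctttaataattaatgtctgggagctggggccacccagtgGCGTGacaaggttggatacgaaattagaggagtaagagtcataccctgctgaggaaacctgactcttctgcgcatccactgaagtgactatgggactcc
Ugt1a1, chr1:88211709-88212008: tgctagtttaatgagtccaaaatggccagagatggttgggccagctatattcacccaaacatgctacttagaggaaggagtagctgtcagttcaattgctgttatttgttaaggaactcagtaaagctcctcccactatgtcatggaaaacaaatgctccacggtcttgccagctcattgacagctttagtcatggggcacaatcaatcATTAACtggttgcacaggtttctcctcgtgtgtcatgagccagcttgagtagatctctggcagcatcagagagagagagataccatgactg

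Ugt1a9 and Ugt1a1 each have a match to GTTAAT, and Ugt1a5 has a match to GCGTG. In the table, 4 of the 8 Ugt1a promoters hold GTTAAT, 2 hold GCGTG and 0 hold TATAAA. Of all 32851 promoters of the same length, 7.10%, 32.4% and 13.6% hold these letters. The matches overlap no other of these motifs, and they describe the letters only.

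**Figure D3:**
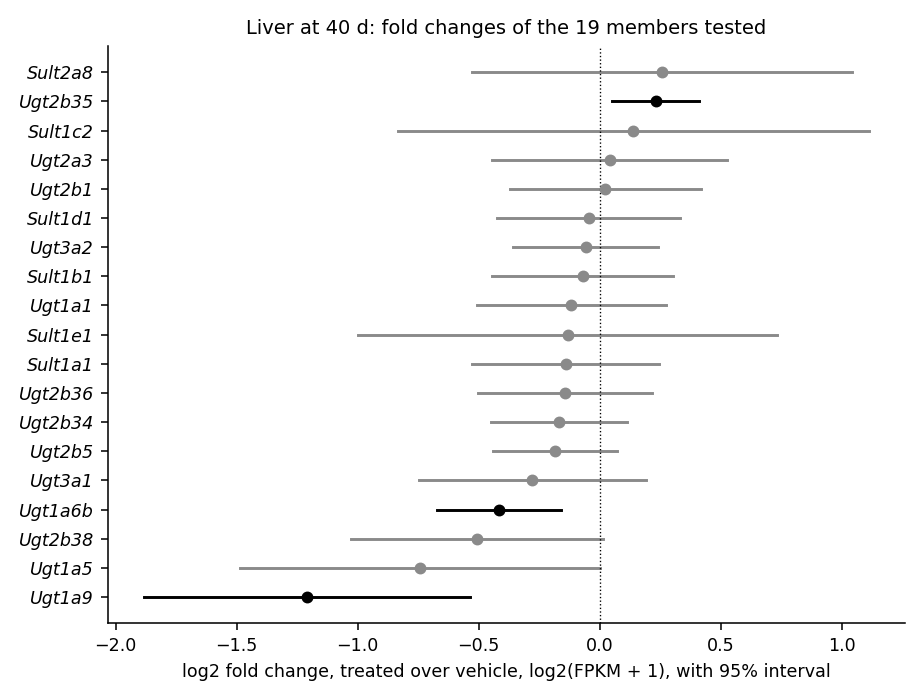
Log2 fold change of the 19 tested members at 40 d (points) with its 95% interval (lines) from the limma fit; black marks an unadjusted p under 0.05. Ugt1a9 and Ugt1a6b lie left of 0 and Ugt2b35 right of it, and the intervals of the other 16 include 0.

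The Ugt2 genes lie together on chromosome 5 and include the most abundant members. Ugt2b5 had 208 to 263 FPKM in vehicle livers (median 242) and 173 to 263 in treated livers (median 202), with treated 4_5, 5_1 and 5_5 below the vehicle range. Its log2 fold change was −0.19 (95% interval −0.44 to 0.07). Ugt2b36 had 211 to 262 FPKM (median 229) against 125 to 275 (median 229), where treated 5_1 (194) and 5_5 were below and 5_3 and 5_4 above the vehicle livers. Its log2 fold change was −0.14 (95% interval −0.50 to 0.22). Ugt2b34 had 102 to 149 FPKM (median 118) against 73.5 to 125 (median 107), a log2 fold change of −0.17 (95% interval −0.45 to 0.11). A single treated liver, 4_5, was below the vehicle range of Ugt2b34.

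Ugt2b35 was the member that stood higher in treated livers. It had 43.6 to 57.4 FPKM in vehicle livers (median 53.2) and 53.9 to 67.9 in treated livers (median 62.1). Treated 5_2, 5_3, 5_4 and 5_5 were above every vehicle liver, and 5_5, which was low in most other members, was highest. Its log2 fold change was 0.23 (SE 0.08, limma adjusted p = 0.262). Ugt2b35 shares 0.725% of its windows with other genes, so its reads are nearly all its own.

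Ugt2b38 had 3.17 to 9.69 FPKM in vehicle livers (median 7.79) and 2.83 to 5.38 in treated livers (median 4.31). Vehicle 2_1 and 6_1, at 3.17 and 3.57, lay among the treated livers, and the log2 fold change was −0.51 (SE 0.24, limma adjusted p = 0.388). Ugt2b37, which did not pass the filter, had 0.827 to 3.11 FPKM in vehicle and 0.480 to 1.29 in treated livers, with 4 treated livers below the vehicle range. With no filter its log2 fold change was −0.61 (limma adjusted p = 0.414). The same vehicle livers, 2_1 and 6_1, were low in both of these genes, which share near-identical sequence. Ugt2a3 and Ugt2b1 had log2 fold changes of 0.04 (95% interval −0.44 to 0.53) and 0.02 (95% interval −0.37 to 0.42), with treated 5_3 and 5_4 above and 4_5 or 5_5 below the vehicle livers. Ugt2a1 and Ugt2a2, enzymes known from the nose, had 0 reads in all 12 livers. Their exons overlap other genes on the same strand over 98.8% and 94.5% of their length, which leaves 30 and 140 bases of their own. The 0 reads therefore do not show that these genes were silent.

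The Ugt3a genes on chromosome 15 use sugars other than glucuronic acid. Ugt3a1 had 10.2 to 12.5 FPKM in vehicle livers (median 10.9) and 4.12 to 13.9 in treated livers (median 9.87). Treated 4_5, 5_1 and 5_5 were below the vehicle range and 5_2 and 5_4 above it, with a log2 fold change of −0.28 (95% interval −0.75 to 0.19). Ugt3a2 was at 75.4 ± 5.73 and 74.0 ± 17.8 FPKM (SD, n = 6), a log2 fold change of −0.06 (95% interval −0.36 to 0.24).

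Among the sulfotransferases, 6 of 21 passed the filter and none had an unadjusted limma p under 0.05. Sult1a1, the main phenol sulfotransferase of liver, had 156 to 249 FPKM in vehicle livers (median 185) and 102 to 244 in treated livers (median 174). Only treated 5_5 lay outside the vehicle range, and the log2 fold change was −0.14 (95% interval −0.53 to 0.25). Sult1d1, which acts on catecholamines, was at 70.7 ± 18.2 and 68.5 ± 14.8 FPKM, and Sult1b1, which acts on thyroid hormone, at 8.56 ± 1.87 and 8.20 ± 2.13 (SD, n = 6). Their log2 fold changes were −0.05 (95% interval −0.42 to 0.33) and −0.07 (95% interval −0.44 to 0.30).

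The estrogen sulfotransferase Sult1e1 varied most among vehicle livers, from 12.5 to 78.8 FPKM, a 6.33-fold range. Treated livers had 12.9 to 46.7 FPKM, all within the vehicle range, and the log2 fold change of −0.13 had a 95% interval of −0.997 to 0.73. Sult1c2 was at 3.20 ± 0.573 FPKM in vehicle livers and 5.95 ± 8.84 in treated livers (SD, n = 6). Treated 5_2 alone had 23.9 FPKM, and the other 5 treated livers had a mean of 2.36. The log2 fold change was 0.14 with that liver and −0.35 without it, so its sign rests on 1 animal. Sult2a8, a liver sulfotransferase of bile acids, was at 7.01 ± 1.44 and 10.5 ± 8.26 FPKM, of which treated 5_3 had 25.9. The log2 fold change was 0.26, and −0.045 without that liver, where the treated mean was 7.41. The other 7 Sult2a genes had at most 1.17 FPKM in any liver. Several of these share stretches of sequence (62.1% of the windows of Sult2a2 occur in other genes), so reads among them are uncertain. Sult6b2 had at most 0.0484 FPKM in vehicle livers and 1.75 in treated 5_3. In all, 6 of the 42 members had 0 reads in every liver, and a further 17 had reads and did not pass the filter.

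**Figure D4:**
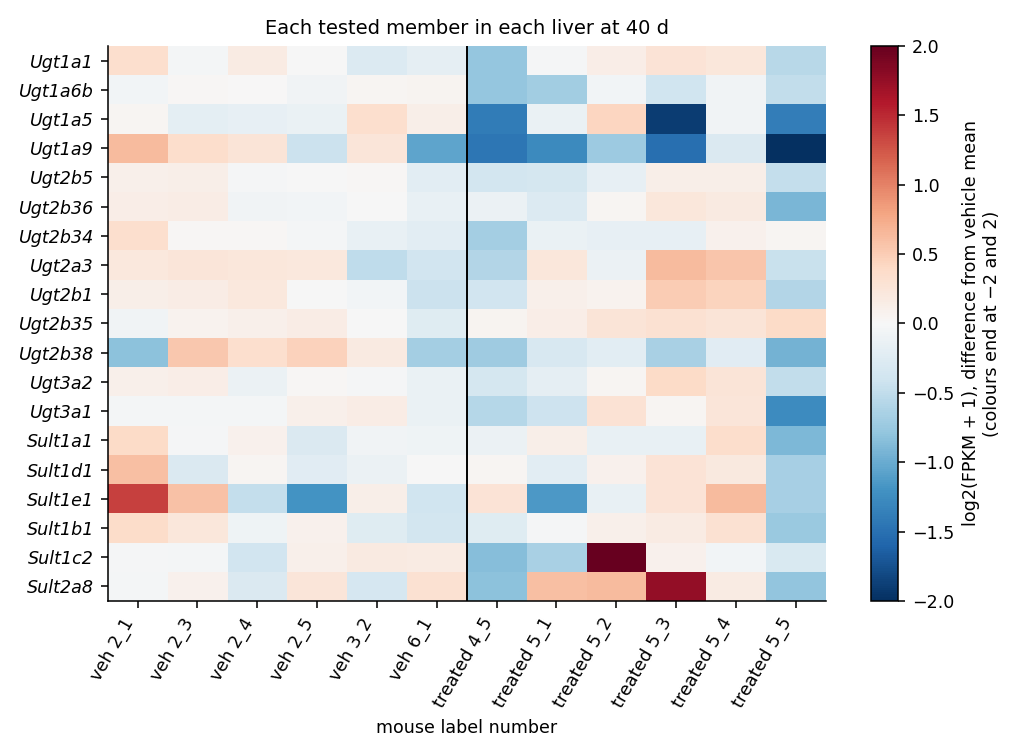
Difference of log2(FPKM + 1) from the vehicle mean for each tested member (rows) in each liver at 40 d (columns, by mouse number); red is higher, blue lower, and colours end at −2 and 2. Treated 4_5 and 5_5 are blue in most rows, Ugt1a9 is blue in all treated livers, and Sult1c2 in 5_2 and Sult2a8 in 5_3 stand out in red.

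Single animals stood apart across many members. Treated 5_5 was the lowest of the 12 livers in 10 of the 19 tested members and treated 4_5 in 6, against 14.3% and 13.2% of all genes tested. Treated 5_3 was the highest in 5 members and vehicle 2_1 in 7, against 16.3% and 12.2% of all genes. Liver 5_5 also had the lowest albumin level (11998 FPKM), the highest acute phase sum and the highest level of Spp1 (730 FPKM, against 58.2 to 287 in the other livers), the secreted phosphoprotein osteopontin. Liver 4_5 had the highest Kupffer cell sum, 1572 FPKM, and the highest sum of the neutrophil markers other than Lcn2, 444 FPKM. Whether these values had a part in the low members was not tested. The 6 bile duct cell markers other than Spp1 summed to 131 FPKM in treated 5_2, which was highest in Sult1c2 and Ugt1a7c, and to 7.68 to 18.01 in the other livers. Their part in those values of 5_2 was not tested.

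The genes that supply the donors and handle the conjugates were read as lists, with no member past the adjusted threshold except where named. Each list's median stands against −0.003 over all genes tested, and each count of directions against 51.0% of all genes lower. For UDP-glucuronic acid supply, 4 of 5 tested genes were lower, with a median log2 fold change of −0.11. Ugp2, which makes UDP-glucose, was at 207 ± 45.0 and 120 ± 41.9 FPKM (SD, n = 6), a log2 fold change of −0.82 (limma adjusted p = 0.164). Ugdh, which oxidises UDP-glucose to the glucuronic acid donor, was at 41.7 ± 7.68 and 30.5 ± 7.73 FPKM, a log2 fold change of −0.46 (limma adjusted p = 0.245). For the supply of PAPS and sulfate, 6 of 9 were lower with a median of −0.06, led by Impad1 (−0.14, limma adjusted p = 0.537) and Slc35b3 (0.14, limma adjusted p = 0.564). Of the genes listed for the removal of conjugates, which include sulfatase-modifying factors such as Sumf2, 3 of 5 were lower with a median of −0.08. Whether each of these genes acts on conjugates made by the members was not examined. The arylsulfatase gene Arsb was at 4.05 ± 0.155 and 3.32 ± 0.382 FPKM (limma adjusted p = 0.166), and Sumf2 had a log2 fold change of −0.09 (limma adjusted p = 0.602).

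Of the transporters that move conjugates across the hepatocyte membrane, 9 of 11 were lower with a median of −0.18. Slc22a7, an uptake carrier, was at 1.16 ± 0.147 and 2.11 ± 0.914 FPKM (log2 fold change 0.49, limma adjusted p = 0.178). The canalicular pump Abcc2, which exports bilirubin glucuronides into bile, was at 54.4 ± 6.61 and 42.0 ± 7.77 FPKM (log2 fold change −0.38, limma adjusted p = 0.213). Both tyrosylprotein sulfotransferases, Tpst1 (0.21, limma adjusted p = 0.352) and Tpst2 (0.30, limma adjusted p = 0.373), were higher, and Ugt8a did not pass the filter. Among 20 transcriptional regulators of these enzymes, 12 were higher and 8 lower with a median of 0.03. The smallest p-values belonged to Nfe2l2, the oxidative stress factor (log2 fold change −0.25, limma adjusted p = 0.296), and Esr1, the estrogen receptor (0.41, limma adjusted p = 0.401).

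Of the genes used as readouts of the nuclear receptors CAR, PXR, AHR and PPARα, 9 of 12 were lower with a median of −0.33. Cyp2c55, a steroid- and drug-inducible P450, passed the test and fell from 4.83 ± 0.926 to 2.34 ± 0.789 FPKM (log2 fold change −0.83, limma adjusted p = 0.0441). It passed in 5 of 18 alternatives (limma adjusted p from 0.0120 to 0.134), and with 1 liver left out it passed without treated 5_2 and failed without any other. Cyp2b10, the standard CAR target, was at 2.23 ± 1.64 and 0.496 ± 0.353 FPKM (log2 fold change −1.002, limma adjusted p = 0.165). Of the male-biased genes of liver, 9 of 12 were higher with a median of 0.21, led by C8a (1.13, limma adjusted p = 0.177) and Egfr (0.95, limma adjusted p = 0.184). At an unadjusted limma p under 0.05, 2 of them were higher and 1 was lower, Mup20 (−0.60, limma adjusted p = 0.324). Of the female-biased ones, 5 of 6 were lower with a median of −0.22, led by Cyp2a4 (−1.77, limma adjusted p = 0.246) and Abcd2 (−0.21, limma adjusted p = 0.285). The list members shown are those with the smallest p, so they are not typical of their lists.

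At 24 h, with 1 liver per group and so no test, 18 of the 42 members had a mean of at least 5 FPKM. Sult1e1 was the only one at least 1.5-fold higher in the treated liver, where 2.71% of the 6825 genes at that level were, and 0 were at least 1.5-fold lower, where 1.47% were. Sult1e1 had 26.1 FPKM from 456 reads in the treated liver and 9.39 from 189 reads in the vehicle liver, a log2 ratio of 1.38. Both values lie within or below the range of the vehicle livers at 40 d, although the tables were normalized separately. Sult1d1 was next, at 73.0 against 53.6 FPKM (0.44), then Ugt1a6b at 17.8 against 14.7 (0.25) and Sult2a8 at 13.2 against 11.96 (0.13). The lowest ratios belonged to Sult1c2 (5.23 against 6.95 FPKM, −0.35), Ugt2a3 (65.7 against 83.6, −0.34), Ugt2b5 (251 against 293, −0.22) and Ugt2b35 (67.5 against 77.0, −0.19). The median log2 ratio of the 18 members was −0.02, against 0.09 over all genes at that level.

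**Figure D5:**
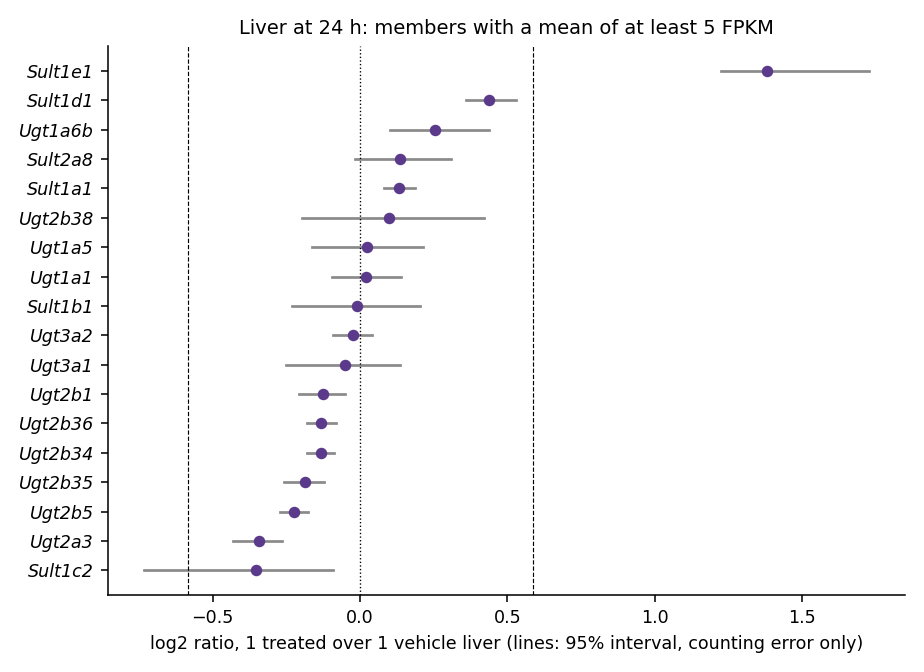
Log2 ratio of FPKM + 1, 1 treated over 1 vehicle liver at 24 h, for the 18 members with a mean of at least 5 FPKM; grey lines are 95% intervals of the read counts (Clopper-Pearson), which cover counting error only, and dashed lines mark 1.5-fold. Sult1e1, at 1.38, is the single point beyond them.

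The 10 members with the smallest limma p at 40 d were also read at 24 h, as values only. The Ugt1a sum was 68.3 FPKM in the vehicle and 70.9 in the treated liver, a log2 ratio of 0.05. Ugt1a9 was at 2.70 FPKM (96 reads) and 1.56 FPKM (48 reads), a log2 ratio of −0.54, and took 3.77% and 2.08% of the Ugt1a reads. Ugt1a5 was at 13.9 and 14.1 FPKM, and Ugt2b38 at 5.97 and 6.46. Ugt2b34 was at 124 and 113 FPKM, Ugt2b36 at 234 and 214, Ugt3a1 at 11.2 and 10.8, and Sult1a1 at 249 and 273. The values of Ugt1a6b, Ugt2b5 and Ugt2b35 are given above. Of the 10, Ugt1a6b, Ugt1a5, Ugt2b35, Ugt2b38 and Sult1a1 had the opposite sign at 24 h from that at 40 d. For Ugt1a5 the log2 ratio of 0.02 had a counting interval of −0.16 to 0.21 and became −0.07, the sign at 40 d, when scaled to a median ratio of 0. For Ugt2b38 the log2 ratio of 0.10 had a counting interval of −0.20 to 0.42 and became 0.005 with that scaling. That of Sult1a1 went from 0.13 to 0.04 with it, so these signs are not firm. The difference between the times was not tested, and the vehicle level of Ugt1a9 at 24 h lay below that of all 6 vehicle livers at 40 d.

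In muscle at 40 d, Sult1a1 was the only member with a mean of at least 1 FPKM. It was at 34.5 to 67.6 FPKM in vehicle muscles (median 56.1) and 33.3 to 75.6 in treated muscles (median 55.3), with groups that overlapped. Its log2 fold change was 0.06 (SE 0.20, limma adjusted p = 0.999). None of the 11708 genes tested passed in muscle (0.0%), and 3.85% had an unadjusted limma p under 0.05, Sult1a1 not among them. Sult5a1 followed at 0.805 ± 0.104 and 0.779 ± 0.194 FPKM (SD, n = 6). Liver-type members appeared as traces mainly in vehicle muscle 3_2, with 1.01 FPKM of Ugt2b5 against 0 to 0.185 in the other 11 muscles. That muscle had 98.0 FPKM of Alb, against 1.57 to 14.2 in the others. The muscles at 24 h had 64.4 FPKM (vehicle) and 92.0 FPKM (treated) of Sult1a1.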

How the data were processed

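The authors deposited FPKM values per gene, one table for liver and one for muscle at 40 d and one for 24 h, per the file headers. The submitters' processing notes list GRCm38 and mm10. Aligner, counter and strand use: not given in the sources used here. Libraries came from Trizol-extracted RNA with an NEBNext Ultra kit, per the labels' protocols. All sample columns were used. Every deposited value came out as a whole number of reads (100% within 0.01) once multiplied by gene length and a library constant, so reads were recovered. All 42 lengths matched GENCODE M21. No libraries of a group were duplicates.

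Values were put on the log2 scale after adding 1 and fitted with limma 3.58.1 in R 4.3.3 (moderated test, mean-variance trend, two-sided). A gene entered where 6 or more of 12 libraries held 1 FPKM or more, p-values were Benjamini-Hochberg adjusted over all such genes, and the threshold was 0.05. The Ugt1a sum was tested by exact permutation. At 24 h, ratios were read against 1.5-fold where the pair of livers averaged 5 FPKM or more. The tables were normalized separately, so no test spans them. The code was tested on simulated data.

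The members, lists and tests were chosen with earlier results of these data known, so no list is independent support. Every member with a mean of at least 1 FPKM is named, and the 10 with the smallest limma p are given by liver range. At 24 h the 4 highest and 4 lowest ratios are named, and from each list the genes that passed and the 2 with the smallest p, with Mup20 added. Labels number the mice but do not say how they were housed or processed, so p-values measure the spread between these samples. Precision at low levels is limited by read counts, and intervals cover counting error only at 24 h. Alternatives were other pseudocounts (0.1 and 5), filters, quantile normalization, robust variance, limma voom on recovered reads and leaving out each liver. Those of Cyp2c55 and S100a9, and the marker sums without Lcn2 or Spp1, were added after seeing the data.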

Additional observations from a re-analysis of the deposited data

Results flagged for a closer look

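In 3 of the gene and group combinations checked, 1 liver stood apart from the other 5 of its group, its gap to the nearest being most of the group's range. About 1 in 20 groups is picked out by chance, and 46 were checked.

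Sult1c2 was at 23.9 FPKM in treated 5_2, while the other treated livers had 1.32 to 3.42. Sult1d1 was at 106 FPKM in vehicle 2_1, while the other vehicle livers had 56.5 to 71.0. Sult2a8 was at 25.9 FPKM in treated 5_3, while the other treated livers had 3.46 to 11.2.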

How the results depend on the processing

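No member passed in liver or muscle at 40 d under any of the 19 alternatives run for each tissue, and the smallest limma adjusted p of a member over them was 0.0677 (Ugt1a6b without treated 5_2). For single members the pseudocount of 5 and the other filters were added after seeing the data. Over 360 fits of single members in liver, 340 kept the direction. The other 20, all with 1 liver left out, changed it in 11 members, none of them past the threshold. The log2 fold changes with 1 library left out ranged as follows for the members whose sign turned: Sult1a1 (−0.24 to 0.011), Sult1b1 (−0.15 to 0.063), Sult1c2 (−0.35 to 0.34), Sult1d1 (−0.11 to 0.076), Sult1e1 (−0.37 to 0.14), Sult2a8 (−0.045 to 0.47), Ugt1a1 (−0.20 to 0.012), Ugt2a3 (−0.075 to 0.17), Ugt2b1 (−0.072 to 0.14), Ugt2b36 (−0.22 to 0.010), Ugt3a2 (−0.14 to 0.030) and Sult1a1 in muscle (−0.057 to 0.19). The Ugt1a sum kept its direction throughout (−0.50 to −0.27 with 1 liver left out, exact permutation p from 0.0130 to 0.134), was −0.22 (exact permutation p = 0.0801) as a mean of log2 values over its genes, and had a limma adjusted p of 0.355 as 1 feature in the fit. Over all genes, 28 were called in liver, against 0 with no filter and 0 to 83 with 1 liver left out. That count moved by over 1.5 times without any single liver other than treated 4_5, and was highest without treated 5_2. In muscle 0 were called, against 1 with a mean of at least 5 FPKM, 1 with quantile normalization and 0 to 1 with 1 muscle left out (1 without vehicle 6_1). The cause was not tested. At 24 h, 1 member passed the fold under every alternative. No paired analysis was possible because treated and vehicle mice share no number. Depth limits the low members, since Ugt1a9 rests on 48 to 507 reads a liver.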
